A study of Mus musculus with 8 samples.

Results

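To describe what the tumor cells could show to T cells, NK cells and macrophages, 10 genes of immune checkpoint ligands and of ligands for T or NK cells were followed by name: Cd274, Pdcd1lg2, Cd80, Cd276, Cd47, Lgals9, Pvr, Nectin2, Icam1 and Nt5e. Of these, 9 were among the 18768 genes of the count table, and 8 were kept by edgeR's filter on low counts, as were 15153 genes in all. The level of Pdcd1lg2, the second ligand of PD-1, was not analysed here, and Cd80 was in the table but was too low to test. Nt5e encodes an enzyme and not a ligand, and is counted with the ligand genes throughout.

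The 8 RNA-Seq libraries came from 4 cultured mouse fibrosarcoma lines, each grown from a tumor induced with the carcinogen methylcholanthrene. MC010 and MC011 came from IRF8 knock-out mice and carry the label KO, whereas MC654 and MC659 came from wild-type C57BL/6 mice and carry the label WT, with 2 libraries per line. The strain background of the knock-out mice and the sex and age of all animals were not given in the sources used here, and no treatment of the cultured cells before RNA isolation was named. Each line is 1 tumor, so the 4 libraries of a label stand for only 2 tumors, and genotype and tumor of origin cannot be told apart. No label says that the 2 libraries of a line came from separate cultures, so the spread between them may be technical. P-values of the fits with 1 group per line measure that spread. P-values between the labels measure the spread among the 4 libraries of a label, which also holds the difference between its 2 lines.

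The libraries held between 74063616 and 116206078 counts. RNA counted for the targeted gene, Irf8, was higher in the KO-labelled lines. Irf8 had 442 and 347 counts in MC010, 32 and 10 in MC011, and no more than 2 in any WT-labelled library. In the paper, PCR on genomic DNA typed MC010 and MC011 as knock-out and MC654 and MC659 as wild type. Counts per gene do not show whether the transcript was intact, and groups are named by label throughout. The lines were checked for other cells. Of 15 leukocyte markers, 6 were in the table and 3 of these never passed 20 counts in a library. Ptprc, the pan-leukocyte gene CD45, had 18 and 13 counts in MC010, none in MC011 and 1 or 2 elsewhere. All 9 mesenchymal markers were in the table, and their summed level was 8024 to 9361 CPM (counts relative to the library size, which was normalized by the TMM method) in the KO-labelled and 6643 to 8068 CPM in the WT-labelled libraries. Endothelial and epithelial markers summed to between 33.8 and 566 CPM in the KO-labelled libraries and 114 to 129 CPM in the WT-labelled ones. Most of that range came from the keratin genes Krt18 and Krt8, the latter at 293 and 274 CPM in MC010 against 1.31 and 1.28 CPM in MC011. Cdh5 was also higher in MC010, but the epithelial genes Epcam and Cdh1 went the other way and were lower there than in MC011. Between the labels, Epcam and Tek were past the thresholds given below, both higher with the label KO. They were 28.6% of the tested markers of this list, beside 22.5% of all tested genes. The part of these differences in the results was not tested.

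PD-L1 (Cd274) binds the inhibitory receptor PD-1 on T cells, and CD80 binds the activating receptor CD28 and the inhibitory receptor CTLA-4. CD276, also called B7-H3, is a B7 relative often found on tumors, CD47 binds SIRPA on macrophages and restrains phagocytosis, and galectin-9 (Lgals9) is a ligand of TIM-3. PVR and nectin-2 are bound by the activating receptor CD226 on NK and T cells, and PVR also by the inhibitory receptor TIGIT, ICAM-1 holds leukocytes through the integrin LFA-1, and CD73 (Nt5e) makes adenosine, which dampens T cells. Interferons acting through factors of the STAT and IRF families are well-known inducers of PD-L1, galectin-9 and ICAM-1, and NF-kB of ICAM-1.

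The sequence before the start of each gene was searched for the letters that these factor families prefer, and the windows of the genes that held a match are shown. The search covered the 250 bases before each RefSeq start (GRCm38.p6), and 9 of the 10 genes had an entry, with none for Pvr. The letters were GAAA and GAAA with 2 bases of any kind between them (an interferon response element type), GGAA and GAAA with 2 bases between them (an ETS-IRF composite type), TTCNNNGAA (a STAT site type), and GGG and TTCC with 3 bases between them (an NF-kB site type), on both strands. TTCNNNGAA reads alike on both strands and was counted once. Of 32851 promoter windows of the same length, 2.98%, 2.30%, 7.02% and 4.65%, respectively, held them. Lgals9 held the interferon response element letters at -55 to -46 (TTTCTTTTTC, which is the other strand) and the ETS-IRF letters at -153 to -144 (GGAAGGGAAA), counted back from the start. Icam1 held the STAT letters at -42 to -34 (TTCCCGGAA) and no match to the NF-kB letters. Those letters require GGG, so a stretch such as tggaaattcc, which stands in the Icam1 window, could not match. The matches are in capitals and do not overlap. The Lgals9 window is chr11:78984925-78985174 on the minus strand, and the Icam1 window is chr9:21015690-21015939 on the plus strand, both written 5′ to 3′.
Lgals9: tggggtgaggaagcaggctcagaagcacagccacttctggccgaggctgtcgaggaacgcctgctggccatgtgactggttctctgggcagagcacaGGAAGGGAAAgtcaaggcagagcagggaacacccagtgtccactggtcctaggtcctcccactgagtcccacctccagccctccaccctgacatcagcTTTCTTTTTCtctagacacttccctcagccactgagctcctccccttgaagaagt
Icam1: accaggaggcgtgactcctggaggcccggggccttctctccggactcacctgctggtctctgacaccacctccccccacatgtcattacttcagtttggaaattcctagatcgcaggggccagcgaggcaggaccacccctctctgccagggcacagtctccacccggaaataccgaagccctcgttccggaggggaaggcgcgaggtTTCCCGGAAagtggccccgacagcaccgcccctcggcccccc
In the windows of the other 7 genes none of the 4 patterns was found. A match of letters is not a measured binding site, and the lack of a match does not exclude a site.

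Between the labels, 5 of the 8 tested ligand genes passed both thresholds of the study, which ask for an adjusted p-value below 0.05 and for a log2 difference larger than 0.59 in size. Cd274, Lgals9 and Nectin2 were lower in the KO-labelled libraries, Cd276 and Icam1 were higher, and Cd47 was higher by less than the threshold on size. In bulk RNA, fewer cells with a transcript and less of it per cell cannot be told apart. Over all tested genes 22.5% passed both thresholds (13.7% higher and 8.72% lower), and 37.5% passed on the adjusted p-value alone, which 6 of the 8 ligand genes did. The median log2 difference was 0.26 over the 8 ligand genes and 0.02 over all tested genes. The test was the quasi-likelihood test of edgeR, with p-values adjusted by Benjamini-Hochberg over the 15153 genes. When the counts of the 2 libraries of each line were added, so that 2 lines stood against 2, none of the ligand genes and none of the other genes passed, while 3658 genes had an unadjusted p under 0.05, among them Cd47, Cd276, Lgals9 and Cd80. Leaving out 1 library left 5 called ligand genes without the first library of MC010, 3 without the second, 3 without either of MC011, 2 without either of MC654, and 3 and 2 without the first and the second of MC659. Cd276 and Lgals9 were among those called in all 8 of these fits. The levels of 5 tested genes did not overlap between the labels (Cd274, Cd276, Cd47, Nectin2 and Lgals9), as was the case for 42.5% of all tested genes.

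**Figure D1:**
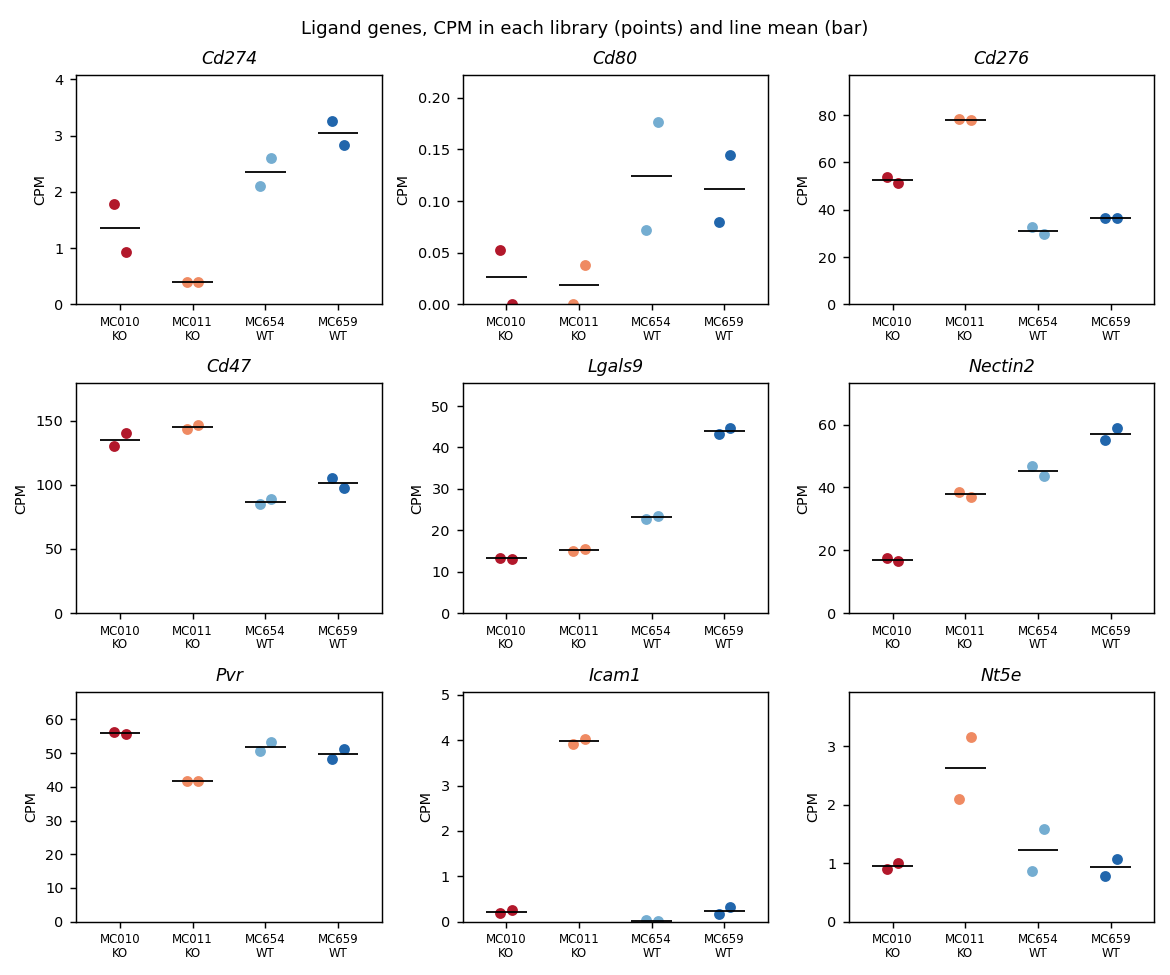
Level of 9 ligand genes in CPM (vertical axis, starting at 0) in each of the 8 libraries (points) with the mean of each line (bar), by line and label. Cd274, Lgals9 and Nectin2 sit lowest in the KO-labelled lines and Cd47 and Cd276 highest there, while Icam1 stands at 3.92 and 4.03 CPM in MC011 and at no more than 0.311 CPM in the other libraries.

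Among the ligands of the B7 family, Cd274 (ENSMUSG00000016496, chromosome 19, 29367455 to 29388095 of mm10) was lower in the KO-labelled lines. Its level was 1.78 and 0.939 CPM in MC010, 0.405 and 0.405 in MC011, 2.11 and 2.60 in MC654, and 3.26 and 2.83 in MC659. All 4 KO-labelled libraries were below all 4 WT-labelled ones, with MC011 the lowest line and the libraries of MC010 apart from each other by more than those of any other line relative to their mean. The mean was 0.883 ± 0.651 CPM (SD, n = 4 libraries, here and below over both lines of a label) with the label KO and 2.702 ± 0.481 CPM (SD, n = 4) with the label WT. The log2 difference was -1.61 (SE 0.49, adjusted p = 0.0344 by edgeR). Cd274 was a low gene, with 32 to 288 counts per library, and 7 of the 8 fits that left out 1 library took its adjusted p past the threshold, to between 0.0556 and 0.0843. The exception was the fit without the first library of MC010 (log2 difference -2.21, adjusted p = 0.00463). Against each WT-labelled line, MC010 was lower by a log2 difference of -0.76 (MC654) and -1.13 (MC659), and MC011 by -2.54 and -2.91, all 4 past both thresholds. That against MC654 was no longer past them without the second library of MC010 (-0.40, adjusted p = 0.175) or of MC654 (-0.61, adjusted p = 0.0900). These comparisons share lines and are not separate evidence. In order of level, MC659 and MC654 did not differ beyond their spread (0.37, 95% interval of MC654 minus MC659 -0.89 to 0.15), MC010 was next, and MC011 was 3.43-fold lower than MC010 (adjusted p = 0.000108, edgeR with 1 group per line).

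Cd276 (ENSMUSG00000035914, chromosome 9, 58524298 to 58555437) went the other way. Its level was 53.9 and 51.3 CPM in MC010, 78.5 and 77.7 in MC011, 32.7 and 29.8 in MC654, and 36.4 and 36.3 in MC659. The KO-labelled libraries were all above the WT-labelled ones, and the libraries of a line lay close together. The means were 65.3 ± 14.8 CPM and 33.8 ± 3.18 CPM (SD, n = 4 each), a log2 difference of 0.95 (SE 0.16, adjusted p = 0.0027 by edgeR). Each step in the order MC011, MC010, MC659, MC654 passed on the adjusted p-value, with log2 differences of 0.57, 0.53 and 0.22, and none of the 3 steps passed the threshold on size. That between MC659 and MC654 did not pass without the second library of MC654 (adjusted p = 0.168) or without the first or the second of MC659 (0.119 and 0.103).

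Cd80 (ENSMUSG00000075122, chromosome 16, 38458933 to 38486933 in the table) was near the limit of detection in every library. It had 6 and 0 counts in MC010, 0 and 3 in MC011, 6 and 15 in MC654, and 7 and 13 in MC659. With 3 counts taken as the floor, which is 0.0262 to 0.0408 CPM depending on the library, the KO-labelled libraries lay at or near it, and no fold is given. The start and end of Cd80 in the table differ from those of the GENCODE M21 annotation, whereas those of the other 8 genes match it.

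Over all libraries, the ligand for macrophages was the most abundant of the group. Cd47 (ENSMUSG00000055447, chromosome 16, 49800533 to 49915010) measured 130.2 and 140.3 CPM in MC010, 143 and 147 in MC011, 85.1 and 89.0 in MC654, and 105 and 97.2 in MC659. The lowest KO-labelled library was above the highest WT-labelled one. The means were 140.1 ± 7.11 CPM and 94.1 ± 8.93 CPM (SD, n = 4 each). The log2 difference of 0.57 (SE 0.08, adjusted p = 0.000904 by edgeR) was under the threshold on size. MC011 and MC010 did not differ beyond their spread (log2 difference of MC010 minus MC011 -0.10, 95% interval -0.22 to 0.01), and MC659 was above MC654 (0.22, adjusted p = 0.0135, edgeR with 1 group per line), though not without the first library of MC654 (adjusted p = 0.0906) or of MC659 (0.198). Transcripts of its receptor Sirpa were higher in the KO-labelled lines, at 86.0 and 89.4 CPM in MC011, 12.0 and 12.7 CPM in MC010, and 4.75 to 6.87 CPM in the WT-labelled libraries (log2 difference 3.16, adjusted p = 0.0109 by edgeR, and 0.193 by limma-voom taking the line as a random effect). Without line MC654 or MC659 its adjusted p was 0.130 and 0.109.

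Lgals9 (ENSMUSG00000001123, chromosome 11, 78962974 to 78984946), whose promoter window is printed above, was lower in the KO-labelled lines and differed between the WT-labelled ones. Its level was 13.4 and 13.1 CPM in MC010, 15.0 and 15.3 in MC011, 22.7 and 23.5 in MC654, and 43.2 and 44.7 in MC659. The labels did not overlap, and MC659 stood well above MC654. The means were 14.2 ± 1.12 CPM and 33.5 ± 12.0 CPM (SD, n = 4 each), a log2 difference of -1.24 (SE 0.24, adjusted p = 0.00544 by edgeR). MC659 was 1.90-fold above MC654 (adjusted p = 1.02e-07, edgeR with 1 group per line), MC654 was above MC011 by 0.61 on the log2 scale, and MC011 was above MC010 by 0.19, which passed on the adjusted p-value alone and did not pass without any 1 of the libraries of these lines (adjusted p = 0.0540 to 0.127). Havcr2, which encodes the receptor TIM-3, was detected at 5.53 and 5.25 CPM in MC010, 1.71 and 1.96 in MC011, 3.62 and 3.74 in MC654, and 2.29 and 2.17 in MC659, with no call between labels (log2 difference 0.29, adjusted p = 0.638 by edgeR).

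The ligands of CD226 behaved differently from each other. Nectin2 (ENSMUSG00000062300, chromosome 7, 19716644 to 19750483) was at 17.5 and 16.6 CPM in MC010, 38.6 and 37.0 in MC011, 46.8 and 43.5 in MC654, and 55.1 and 58.9 in MC659. The labels did not overlap, but MC011 lay closer to MC654 than to MC010. The means were 27.4 ± 12.0 CPM and 51.1 ± 7.13 CPM (SD, n = 4 each), a log2 difference of -0.90 (SE 0.30, adjusted p = 0.0479 by edgeR). With the library number as a block the adjusted p was 0.0753. It was 0.0234 and 0.0334 without the first and the second library of MC011, and between 0.0725 and 0.113 without any other library. Every step in the order of the lines passed on the adjusted p-value, and only that from MC011 to MC010, 2.22-fold, also passed on size.

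Pvr (ENSMUSG00000040511, chromosome 7, 19903578 to 19921160), 153 kb from Nectin2, was at 56.2 and 55.7 CPM in MC010, 41.6 and 41.6 in MC011, 50.6 and 53.2 in MC654, and 48.3 and 51.4 in MC659. The WT-labelled lines lay between the KO-labelled lines. The means were 48.8 ± 8.26 CPM and 50.9 ± 2.04 CPM (SD, n = 4 each), and the log2 difference of -0.06 did not pass (95% interval -0.33 to 0.21, adjusted p = 0.717 by edgeR). MC010, MC654 and MC659 did not differ beyond their spread from their neighbor in the order, and MC011 was below MC659 by 0.26 on the log2 scale (adjusted p = 0.000774, edgeR with 1 group per line). MC010 and MC659, which are not neighbors in the order, did differ on the adjusted p-value alone, in the reported fit and in 6 of the 8 fits without 1 library. Tigit, the gene of the inhibitory receptor for PVR, had 391 and 240 counts in MC010, 34 and 16 in MC011, 344 and 309 in MC654, and 477 and 540 in MC659. Between labels its log2 difference was -1.40 (SE 0.84, adjusted p = 0.226 by edgeR).

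The adhesion ligand Icam1 (ENSMUSG00000037405, chromosome 9, 21015985 to 21028817) was set apart by 1 line. It had 378 and 318 counts (3.92 and 4.03 CPM) in MC011, 22 and 18 counts in MC010, 2 and 1 in MC654, and 15 and 28 in MC659. Only MC011 was high, MC010 lay within the range of MC659, and the labels overlapped. The means were 2.10 ± 2.17 CPM and 0.129 ± 0.141 CPM (SD, n = 4 each), with a log2 difference of 3.99 (SE 1.32, adjusted p = 0.0452 by edgeR). The adjusted p was 0.0280 and 0.0317 without the first and the second library of MC010, and between 0.0576 and 0.108 without any other library. Without line MC011 the difference was 0.72 (adjusted p = 0.526), and with the library number as a block the adjusted p was 0.0710. MC011 was 16.4-fold above MC659, the next line, and MC659 and MC010 did not differ beyond their spread (0.17, 95% interval of MC010 minus MC659 -0.98 to 0.65). Against the 3 counts of MC654, the ratio was 223 (counting interval 75.9 to 1083) for MC011 and 12.0 (3.81 to 60.4) for MC010, with intervals of 95% that cover counting error only.

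Nt5e (ENSMUSG00000032420, chromosome 9, 88327197 to 88372092), the adenosine-producing enzyme, was also highest in MC011. It was at 0.901 and 1.01 CPM in MC010, 2.11 and 3.16 in MC011, 0.863 and 1.59 in MC654, and 0.782 and 1.08 in MC659. Both libraries of MC011 were above all others, and the other 3 lines overlapped. The means were 1.79 ± 1.06 CPM and 1.08 ± 0.363 CPM (SD, n = 4 each), and the log2 difference of 0.73 did not pass (95% interval -0.31 to 1.77, adjusted p = 0.239 by edgeR). MC011 was 2.14-fold above MC654 (adjusted p = 0.0042, edgeR with 1 group per line), but did not pass without the second library of MC011 (adjusted p = 0.0671) or the first of MC654 (0.0512), and MC654, MC010 and MC659 did not differ beyond their spread.

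A two-sided exact permutation test of the log2 level over the libraries, for single genes, gave p = 0.0286 for Cd274, Cd276, Cd47, Nectin2 and Lgals9, which is the smallest p that 4 libraries against 4 allow. Any gene whose levels do not overlap between the labels reaches this p, as was the case for 42.5% of all tested genes. Cd80, which lies near the floor, gave the same p. The test takes the 2 libraries of a line as separate units, although they come from 1 tumor. The exact test gave p = 0.543 for Pvr, p = 0.114 for Icam1 and p = 0.257 for Nt5e. Over lines, 2 against 2, no exact p below 0.333 was possible.

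**Figure D2:**
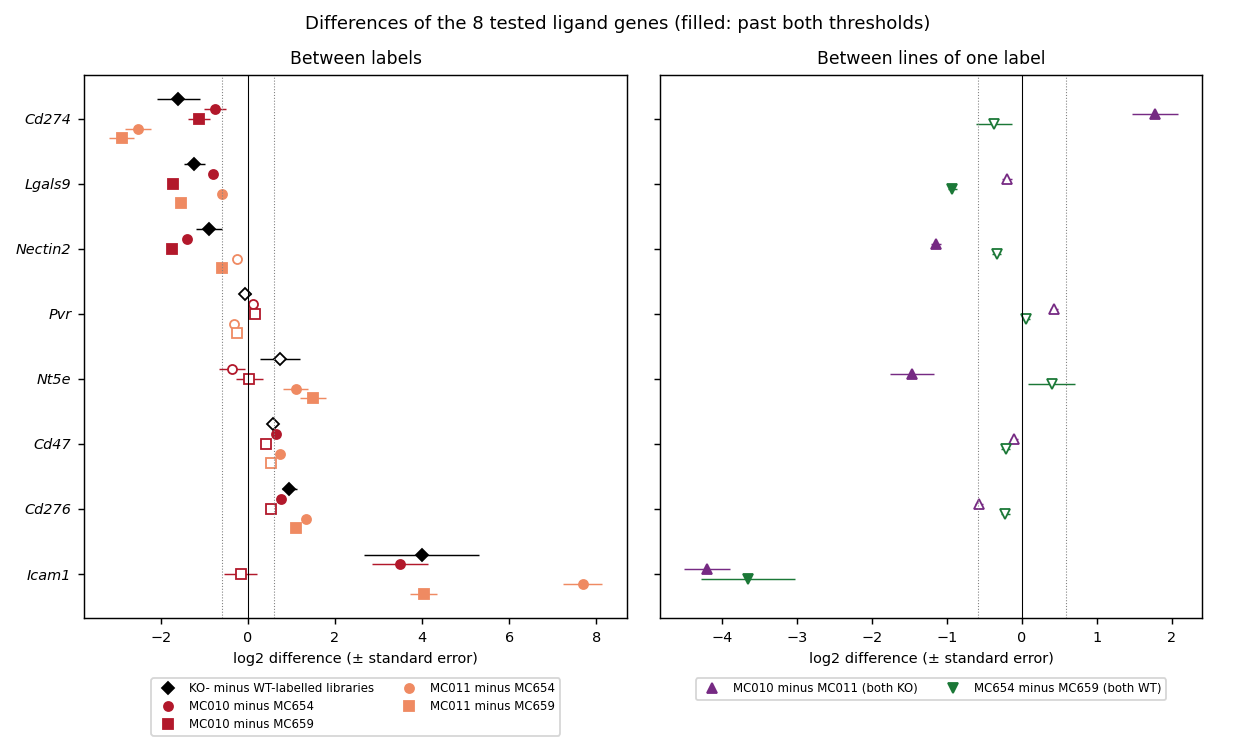
Log2 differences (horizontal axis) of the 8 tested ligand genes with their standard errors, between the labels and between lines of different labels (left) and between the lines of 1 label (right). Dotted lines mark 0.59 in either direction, and filled symbols passed both thresholds, such as the 4 genes that differed between MC010 and MC011 and the 2 that differed between MC654 and MC659.

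The lines within a label were then compared, to see how far the ligands varied between tumors of 1 label. Between MC010 and MC011, both labelled KO, 4 of the 8 genes passed both thresholds, against 31.6% of all tested genes. Cd274 was higher in MC010 (log2 difference 1.78, SE 0.30), and Icam1 (-4.20, SE 0.31), Nectin2 (-1.15, SE 0.06) and Nt5e (-1.47, SE 0.30) were lower in MC010. The distance between the KO-labelled lines was therefore larger in size than the distance between labels for Icam1, Nectin2, Nt5e, Cd274 and Pvr, which was not tested. Between MC654 and MC659, both labelled WT, 2 of the 8 genes passed, against 4.95% of all tested genes. These were Lgals9 (-0.93, SE 0.06) and Icam1, with 3 counts in MC654 and 43 in MC659 (a ratio of MC659 to MC654 of 13.5, counting interval 4.34 to 68.3). On the adjusted p-value alone, 7 of 8 passed between MC010 and MC011 (background 63.0%) and 5 of 8 between MC654 and MC659 (14.5%).

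Between lines of different labels, which share lines with each other, the counts were 6 of 8 for MC010 against MC654 (background 35.9%), 3 of 8 for MC010 against MC659 (36.8%), 6 of 8 for MC011 against MC654 (29.7%) and 6 of 8 for MC011 against MC659 (30.3%). On the adjusted p-value alone they were 6, 6, 8 and 8 of 8, in the same order (66.7%, 67.9%, 60.9% and 61.4%). Nectin2 was lower by a log2 difference of -1.41 and -1.74 in MC010, and by -0.26 and -0.59 in MC011, against MC654 and MC659 in turn. Lgals9 was lower by -0.80 and -1.73 in MC010, and by -0.61 and -1.54 in MC011. Cd276 was higher by 0.75 and 0.53 in MC010, and by 1.32 and 1.10 in MC011. Cd47 was higher by 0.63 and 0.42 in MC010, and by 0.74 and 0.52 in MC011, so that its smaller values were all against MC659. Relative to the mean of the WT-labelled lines, Pvr was at 0.14 in MC010 and -0.29 in MC011, and Nt5e at -0.17 in MC010 and 1.30 in MC011, on the log2 scale.

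Levels were also compared between genes per kb of exon, with exon lengths from GENCODE M21. Cd47 had 22.3 CPM per kb in the KO-labelled and 15.0 CPM per kb in the WT-labelled libraries, and Cd276 had 17.9 and 9.24. Nectin2 was at 7.84 and 14.6 CPM per kb, Lgals9 at 6.65 and 15.7, and Pvr at 7.97 and 8.31. Cd274 was far lower, at 0.244 and 0.746 CPM per kb, as were Icam1 at 0.481 and 0.0296 and Nt5e at 0.209 and 0.125. Over all libraries, Cd47 stood at percentile 80.9 of tested genes, Cd276 at 74.6, Nectin2 at 70.5, Lgals9 at 70.3 and Pvr at 63.4. Cd274, Icam1 and Nt5e stood at percentiles 22.4, 15.3 and 11.2. In the KO-labelled libraries Cd276 and Cd47 were the most abundant ligands per kb, and in the WT-labelled ones Lgals9, Cd47 and Nectin2 were.

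**Figure D3:**
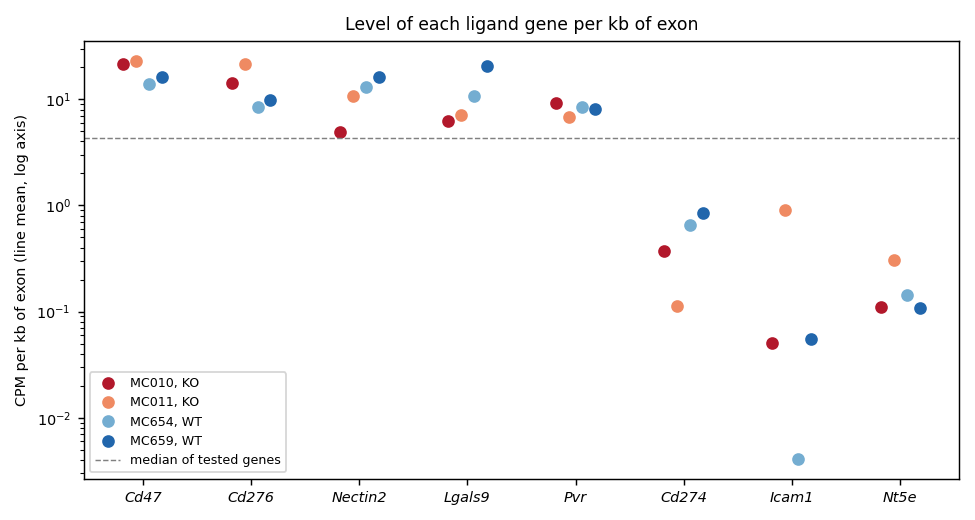
Level of the 8 tested ligand genes per kb of exon (mean of each line, logarithmic axis), ordered by their mean over all libraries, with the median of tested genes as a dashed line at 4.29 CPM per kb. Cd47, Cd276, Nectin2, Lgals9 and Pvr lie above the median in every line, and Cd274, Icam1 and Nt5e lie below 1 CPM per kb in every line.

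The genes with the most similar pattern over the 8 libraries were sought for each ligand by the smallest root mean square distance between log2 profiles, each centred on its own mean. This is a description over 4 lines with no test. Lgals9 was closest to Cxcl12, a chemokine gene (distance 0.064), which was at 87.2 and 86.8 CPM in MC010, 110.2 and 111 in MC011, 152 and 156 in MC654, and 305 and 299 in MC659. Cd274 was closest to Thbs1, which encodes thrombospondin-1 (0.255), and then to Neat1, a nuclear long noncoding RNA (0.262). Thbs1 was at 1090 and 1066 CPM in MC010, 407 and 397 in MC011, 2045 and 1993 in MC654, and 2815 and 2848 in MC659. Icam1 was farther from any gene, with distances of 0.514 for Igsf10 and 0.752 for Ccl7, a monocyte chemokine gene. Cd276 was closest to Asrgl1 (0.052), Cd47 to Gpsm2 (0.063), Pvr to the autophagy gene Atg7 (0.015), Nectin2 to Zfp703 (0.082) and Nt5e to 4930556M19Rik (0.261) and Il34 (0.270).

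Genes beside the ligands were read to see whether whole stretches of a chromosome moved. Plgrkt, which lies 0.064 kb from Cd274, was at 18.0 CPM with the label KO and 19.4 CPM with the label WT (log2 difference -0.11, adjusted p = 0.582 by edgeR). Jak2, 54.4 kb away and a kinase of the interferon-gamma receptor, was higher in the KO-labelled lines (1.15, adjusted p = 0.00409), opposite to Cd274. Icam5 and Icam4, 3.26 kb and 0.555 kb from Icam1, did not share its pattern, as Icam5 was lower in the KO-labelled lines (-1.53, adjusted p = 0.00261) and Icam4 did not pass (-1.36, adjusted p = 0.0921). S1pr2, 39.2 kb from Icam1, was higher by less than the threshold on size (0.58, adjusted p = 0.000273 by edgeR). Mrpl4, which lies between them, did not pass (0.03, adjusted p = 0.816). An antisense gene, Gm47079, overlaps Icam1, Icam4 and Icam5 and had at most 33 counts in a library, and the strand option of the counting was not given in the sources used here. Between Nectin2 and Pvr, Bcam (1.99, adjusted p = 0.0073) and Bcl3 (1.62, adjusted p = 0.0361) were higher in the KO-labelled lines. On the other side of Nectin2, Clasrp (-0.63, adjusted p = 0.00219), 112 kb away, and Gm26890 (-1.08, adjusted p = 0.024), which overlaps it, were lower as Nectin2 was. Relb, 87.2 kb from Nectin2, was higher by less than the threshold on size (0.58, adjusted p = 0.000684 by edgeR). Tomm40, 1.21 kb from Nectin2, did not pass (-0.47, adjusted p = 0.146), nor did Apoe, Clptm1, Zfp296, Gemin7 and Ppp1r37 on that side.

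Other ligands of the same receptor families were compared next, as lists chosen with earlier results of these data known. Of 9 tested B7, TNF-superfamily and other inhibitory ligands, 6 were higher and 1 lower in the KO-labelled libraries, beside 13.7% and 8.72% of all tested genes, with a median log2 difference of 1.18. Icosl, the ligand of ICOS, was at 3.24 to 6.06 CPM in the KO-labelled and 0.400 to 0.671 CPM in the WT-labelled libraries (log2 difference 3.16, adjusted p = 0.000143 by edgeR). Ceacam1, which binds to itself between cells, was at 7.20 to 11.9 CPM against 0.278 to 1.65 CPM (3.36). Lgals1 and Lgals3, which encode galectins, were higher by 1.05 and 1.18 on the log2 scale, opposite to Lgals9. Cd24a, a ligand of Siglec receptors, was at 67.0 and 68.1 CPM in MC011, 2.32 and 2.63 in MC010 and no more than 0.215 elsewhere, and Ildr2 was at 5.75 and 6.37 CPM in MC011 and 0.831 and 0.939 in MC010, against at most 0.245 elsewhere. By limma-voom taking the line as a random effect, Cd24a (adjusted p = 0.466) and Ildr2 (0.105) did not pass. By edgeR neither passed without line MC654 (adjusted p = 0.0762 and 0.0766), nor did Cd24a without MC659 (0.0665). Tnfrsf14, the ligand of BTLA, was the lower one, at 0.177 to 0.259 CPM against 1.34 to 1.84 CPM (-2.84, adjusted p = 7.50e-05). Vtcn1, the gene of B7-H4, was not tested and had 168 and 93 counts in MC010 and at most 1 elsewhere.

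Among the NK-cell ligands, which include ligands of the activating receptor NKG2D, 4 of the 11 listed genes were in the table and were tested, and 2 of these passed, beside 22.5% of all tested genes. Ulbp1 (MULT1), an NKG2D ligand, was at 147 and 159 CPM in MC010 and 56.4 and 55.3 CPM in MC011, against 0.863 and 1.05 in MC654 and 1.44 and 1.75 in MC659. Its log2 difference was 6.35 (SE 0.51, adjusted p = 8.11e-05 by edgeR), and it passed on the adjusted p-value in all 8 fits that left out a library and all 4 that left out a line. Raet1d went the other way, at 0.533 to 1.25 CPM in the KO-labelled and 2.83 to 3.77 CPM in the WT-labelled libraries (-1.82, adjusted p = 0.00218). Raet1e was low only in MC010, at 0.691 and 0.871 CPM against 4.53 to 6.38 CPM elsewhere. Raet1d and Raet1e overlap and belong to a family of near-identical copies, so their counts are uncertain. Clec2d, a ligand of an inhibitory NK receptor, was at 2.71 and 2.49 CPM in MC010, 5.34 and 7.30 in MC011 and 6.94 to 11.9 in the WT-labelled libraries (-1.04, adjusted p = 0.0622).

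**Figure D4:**
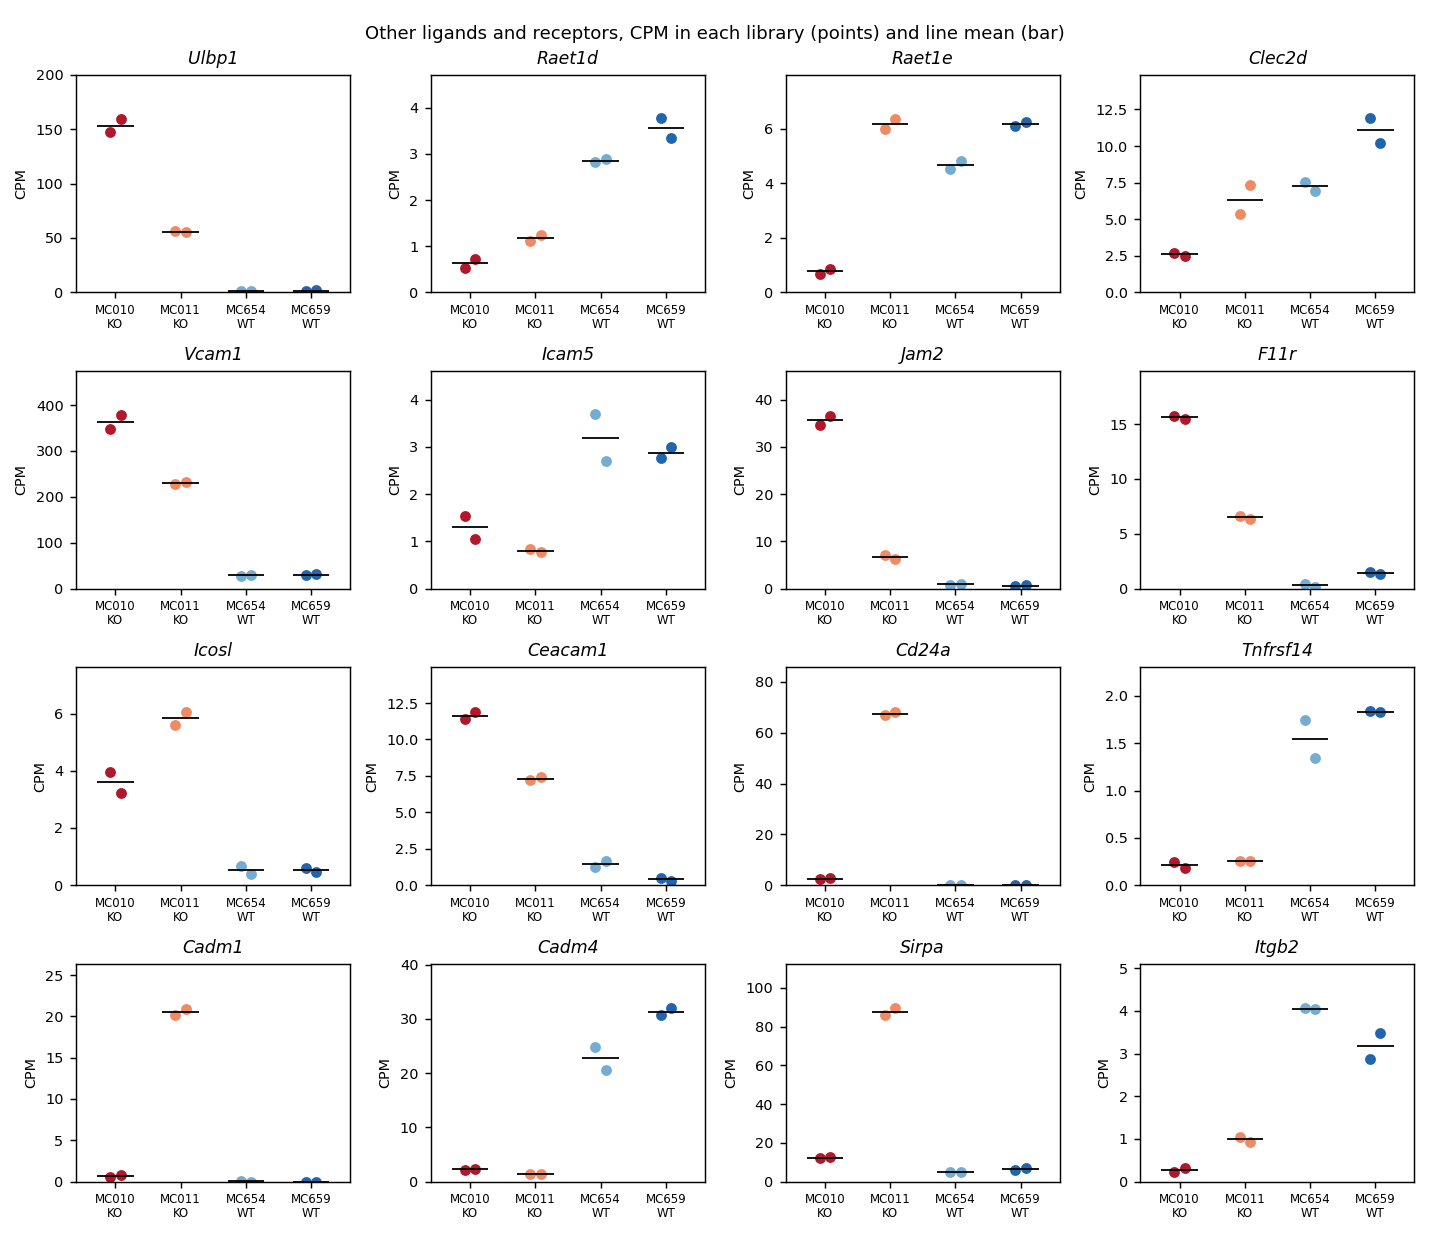
Level of 16 other ligand and receptor genes in CPM (vertical axis, starting at 0) in each library (points) with the mean of each line (bar). Ulbp1, Vcam1, Icosl and Ceacam1 are high in both KO-labelled lines, Cd24a, Cadm1 and Sirpa are highest in MC011, and Raet1d, Icam5, Tnfrsf14, Cadm4 and Itgb2 are highest in the WT-labelled lines.

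Of 6 tested adhesion ligands other than Icam1, 3 were higher and 2 lower in the KO-labelled libraries, beside 13.7% and 8.72% of all tested genes. Vcam1, the ligand of the integrin VLA-4, was at 348 and 378 CPM in MC010 and 227 and 233 in MC011, against 27.7 to 31.0 CPM in the WT-labelled libraries (log2 difference 3.31, SE 0.19, adjusted p = 1.48e-05 by edgeR). Unlike Icam1, it was thus high in both KO-labelled lines. Jam2 (4.74) and F11r (3.68) were also higher, and Jam3 (-1.13) and Icam5 were lower. Of 5 tested nectins and nectin-like molecules 3 passed, beside 22.5% of all tested genes. Cadm2 was higher, with 373 and 242 counts in MC010, 120 and 126 in MC011 and at most 12 elsewhere, and Cadm4 was lower (-3.89, at 1.41 to 2.30 CPM against 20.6 to 31.9 CPM). Cadm1, a ligand of CRTAM on T and NK cells, was the third to pass. It had 1947 and 1653 counts in MC011, 56 and 61 in MC010 and 1 count in all WT-labelled libraries together, which made MC011 at least 605-fold higher than MC659, where it was at 0, with 3 counts per library as the floor. Between labels, Cadm1 did not pass by limma-voom (adjusted p = 0.310) or without line MC654 (0.0881) or MC659 (0.0703) by edgeR. Nectin1 and Nectin3 did not pass (-0.09 and -0.19).

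In the adenosine pathway, of 11 tested genes 3 were higher and 1 lower in the KO-labelled libraries, beside 13.7% and 8.72% of all tested genes. Ada, the enzyme that removes adenosine, was at 10.4 to 13.3 CPM against 1.64 to 2.03 CPM (log2 difference 2.69, SE 0.14, adjusted p = 9.57e-06 by edgeR). Enpp1, which makes AMP from ATP, was at 9.29 to 12.5 CPM against 47.5 to 58.8 CPM (-2.33, SE 0.12, adjusted p = 9.44e-06). Cd38 was highest in MC011, at 2.51 and 3.01 CPM against at most 0.381 elsewhere, as Nt5e was. Its log2 difference of 2.43 between labels (adjusted p = 0.0345 by edgeR) passed in only 2 of the 8 fits without 1 library, those without a library of MC010, with an adjusted p of 0.0705 to 0.0895 in the others. Without line MC011 it was 0.33. Adora1 had 267 and 144 counts in MC010, 15 and 24 in MC011 and at most 1 elsewhere, and did not pass by limma-voom (adjusted p = 0.0958) or without line MC654 (0.0564) or MC659 (0.0602) by edgeR.

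Of 14 genes known to regulate PD-L1 or CD47, 2 were higher and 2 lower in the KO-labelled libraries, 28.6% of the list beside the background of 22.5%. Irf1, an interferon-induced transcription factor (log2 difference -0.74, adjusted p = 0.000568 by edgeR), and Cmtm6, whose product stabilizes PD-L1 (-0.74, adjusted p = 0.00283), were lower. Jak2 and the NF-kB subunit gene Rela (0.89, adjusted p = 1.65e-05) were higher, and the adjusted p of Jak2 was 0.0696 without line MC654 and 0.0597 without MC659. Ifngr1, Ifngr2, Jak1, Stat3, Irf2, Nfkb1, Hif1a, Cmtm4 and Qpctl lay between -0.11 and 0.44 and did not pass, and Myc did not pass at -1.46 (adjusted p = 0.0567). Among the receptors on leukocytes, 4 of 11 were tested. Itgb2, the beta chain of LFA-1, was lower in the KO-labelled lines, at 0.227 to 1.04 CPM against 2.87 to 4.06 CPM (-2.52, adjusted p = 0.00577). Its adjusted p by edgeR stayed under 0.05 in all 8 fits without 1 library and in 3 of the 4 without 1 line, and was 0.0662 in the remaining fit. The summed leukocyte markers were lower as well, at 5.82 to 7.41 CPM against 10.1 to 11.5 CPM, mostly Cd68 and Csf1r. Csf1r overlaps Hmgxb3, a gene on the other strand with up to 10046 counts in a library. The markers with few counts did not all go that way. Cd79a was higher with the label KO (10 to 17 against 2 to 6 counts), and Ptprc was higher in MC010 alone. Itgax was lower (0 to 4 against 5 to 29 counts), and Flt3 overlapped between the labels. The part of the leukocyte markers in the difference of Itgb2 was not tested.

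**Figure D5:**
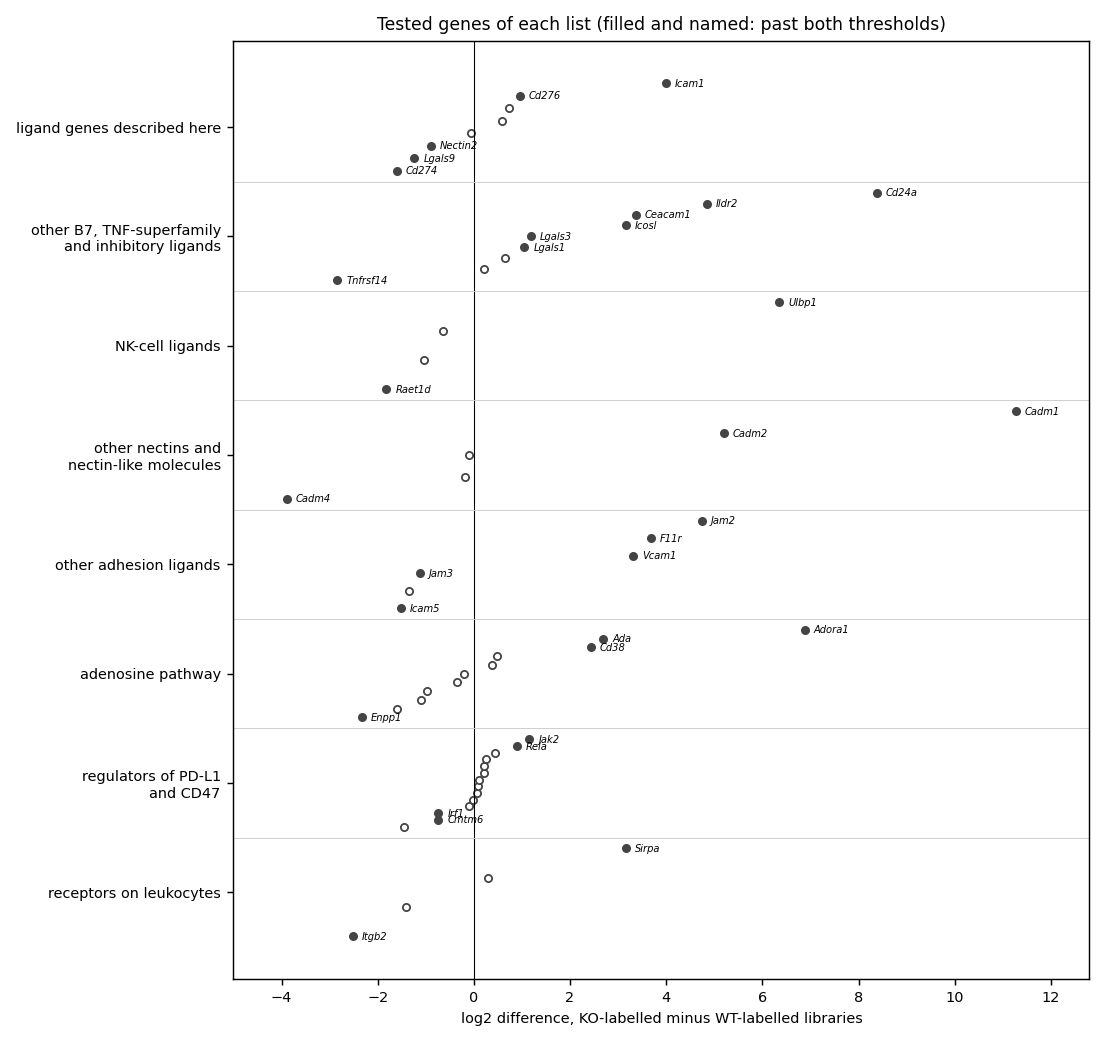
Log2 difference between the KO-labelled and the WT-labelled libraries (horizontal axis) for every tested gene of the 8 lists (rows). Filled and named genes passed both thresholds, and the value of Cadm1, near 11, is a fitted value for a gene with 1 count in the WT-labelled libraries and not a measured ratio.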

How the data were processed

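RNA-Seq counts of 8 libraries from 4 mouse tumor lines were analysed. Per the labels, a stranded mRNA library was made, and the submitters' processing notes name STAR 2.7.3a, HTSeq 0.11.2, DESeq2 and the builds mm10 and GRCm38.p6. The deposited table holds raw counts per gene and library. It also holds a signal, which the authors made by dividing each count by a size factor of DESeq2, and columns of the authors' own comparison, namely the mean of the signal, log2 fold changes and their errors, the score of the test, the p-value, and that p-value after adjustment. None of these was used here. Genes of the table sum to 20 counts or more over the libraries. Columns were matched to libraries by their names.

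The raw counts entered edgeR 4.0.16 under R 4.3.3. Genes were kept by filterByExpr (15153 of 18768), normalized by TMM and tested with the robust quasi-likelihood test, first with the label as the only term and then with 1 group per line. Adjustment for multiple tests (Benjamini-Hochberg) was over all genes tested. Genes were called at an adjusted p under 0.05 and a log2 difference over 0.59 in size, as in the study. Standard errors were derived from the log2 difference and the F statistic. Log2 levels used a prior count of 2 in edgeR's cpm. CPM per kb used exon lengths from GENCODE M21, and promoter sequences are those of RefSeq (GRCm38.p6).

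The ligand genes and all lists were chosen with earlier results of these data known, and genes were named when they were ligands, members of the lists or among the 3 closest in pattern (mean log2 CPM of at least 1). Genes beside the ligands were chosen by position. Part of the list of regulators is not reported here. The libraries of a line differed by more than counting noise (chi-square per degree of freedom 7.69 to 13.3) and were kept apart. Library numbers did not pair the lines (correlations -0.03 to 0.06). Alternatives were DESeq2 1.42.0 without independent filtering, upper-quartile scaling, all genes without a filter, the library number as a block, no threshold on size, each library or line left out, added counts per line, and limma-voom (limma 3.58.1) taking the line as a random effect. The fits were tested on simulated counts. With 74063616 to 116206078 counts per library, a floor of 3 counts is 0.0262 to 0.0408 CPM. Intervals and floors cover counting error only.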

Additional observations from a re-analysis of the deposited data

Results flagged for a closer look

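For 4 of the 8 tested ligand genes, MC010 and MC011 differed from each other in how far they lay from the WT-labelled lines, by edgeR's test with 1 group per line, although they share the label KO. In the same comparison 31.6% of all tested genes passed. The log2 difference of MC010 minus MC011 was 1.78 for Cd274, -4.20 for Icam1, -1.15 for Nectin2 and -1.47 for Nt5e. For Cd274, MC010 was 0.94 and MC011 2.72 below the mean of the WT-labelled lines on the log2 scale, and for Nectin2 they were 1.57 and 0.42 below it. Of 18 sets of 4 libraries (a ligand gene in 1 label) none had a library far from the others by Dixon's criterion. Each set holds 2 libraries of each of 2 lines, and a distance between the lines can hide a single library. The criterion therefore cannot decide whether a library stands apart. Its chance rate of about 1 in 20 sets is for separate draws from 1 group, which these are not.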

How the results depend on the processing

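Between the labels, 5 ligand genes passed in the reported fit, with DESeq2 and with upper-quartile scaling. With no filter on low counts 3 passed, with the library number as a block 3, with limma-voom and the line as a random effect 3, with the counts of each line added 0, and with each library left out 2 to 5. With 1 line left out, 6 passed without MC010, 4 without MC011, 1 without MC654 and 3 without MC659. Cd276, Cd47 and Lgals9 kept an adjusted p under 0.05 in all 8 fits without 1 library, Cd274 in 1, and Nectin2 and Icam1 in 2 each. The adjusted p of Lgals9 was 0.0557 without MC010, that of Cd276 0.0542 without MC654, and that of Cd274 0.154 with the random effect. Over all genes, 3404 were called in the reported fit, 1876 with the random effect, 0 with added counts, and 5827, 2079 and 1884 without MC011, MC654 and MC659. With no threshold on size, 7 ligand genes passed between MC010 and MC011, 5 between MC654 and MC659, and 6 between MC010 and MC659. The library numbers did not pair the lines, and the block changed no count between lines. Direction reversed without MC010 for Raet1e (0.17), Vsir (-1.54), Nectin1 (0.23) and Havcr2 (-0.71), without MC011 for Pvr (0.13), Nt5e (-0.19) and Adk (-0.50), and without MC659 for Havcr2 (-0.037). None of these had passed between the labels. With each library left out, the log2 difference ranged over 0 for Pvr (-0.136 to 0.00703) and Nectin1 (-0.27 to 0.037) between the labels, for Nt5e between MC654 and MC659 (-0.11 to 0.77), MC010 and MC654 (-0.75 to 0.13) and MC010 and MC659 (-0.19 to 0.27), and for Icam1 between MC010 and MC659 (-0.54 to 0.33). The cause of these changes was not tested. Cd80 and the low counts of Icam1 limit what could be compared at this depth.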
